A study of Homo sapiens with 6 samples.

Results

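Metallothioneins are small cysteine-rich proteins that bind zinc and copper. The 10 genes described here, MT1A, MT1B, MT1E, MT1F, MT1G, MT1H, MT1M, MT1X, MT2A and MT3, were taken by name from the family, and every array row named for them was used. Of these, 9 had a named row, with 1 row each, among 14884 genes measured, and MT1A was not analysed here. The members were chosen by their log2 levels across these arrays as well as by family, with the differences between groups known, so the members' values are given as a description and no p-value is printed for a member. Calls of members are counted only beside the share of all genes called.

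Gene expression was measured on Affymetrix HuGene 2.0 ST arrays in H9, an established human embryonic stem cell line. All 3 groups had been transduced with an EF1α-driven lentiviral vector that also made eGFP. In gamma_ON the vector also held H2A.X bearing S139E, where glutamate stands for the serine whose phosphorylation marks DNA breaks. In gamma_OFF it held H2A.X bearing T136A plus S139A, so that neither place can be phosphorylated. In CTRL it held eGFP and no added H2A.X. Each group had 2 arrays. Cells sorted for GFP and a pluripotency surface antigen had been expanded from single colonies on mouse embryonic fibroblast feeders, with bFGF at 8 ng/ml in medium conditioned by such feeders. The labels do not say whether the 2 arrays of a group came from separate clones or cultures, so their spread may be technical. The titles call each sample a clone, so a difference between groups cannot be told apart from a difference between clones. Unsubstituted H2A.X was not added in any group, so an effect of a substitution and one of added H2A.X cannot be told apart.

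Levels are log2 values after RMA, so a difference of 1 is a 2-fold change, and levels of different genes are not set against each other. Gamma_OFF replicate 2 stood apart from the other arrays, at 35.3 on the first principal component against 14.6 for gamma_OFF replicate 1 and -8.89 or lower elsewhere, and its levels were spread least (SD across genes 1.64, where the other arrays had 1.70 to 1.81). The members' main gamma_OFF differences, and those of most called genes named from other lists, are therefore given also without that array. Pluripotent cell markers were read to describe the cells, without a threshold for identity. Over the 10 measured, the mean log2 level was 10.43 to 10.49 in gamma_ON, 10.50 to 10.54 in gamma_OFF and 10.23 to 10.38 in CTRL. That mean covers markers far below it, with NANOG at 6.26 to 7.29 and POU5F1 at 7.10 to 8.05 over the 6 arrays. H2AX was not analysed here, so the transgene's own level is not given.

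Transcription of the human MT1 and MT2 genes is driven by the zinc-sensing factor MTF1, which binds metal response elements in their promoters, and glucocorticoids and oxidative stress also induce them. MT2A and the MT1 genes are made in many tissues, with high levels in liver. MT3 is made mainly in the brain, and MT4, a relative outside the list, in stratified squamous epithelium. The genes lie side by side on chromosome 16 and their copies are alike in sequence, so a row may catch RNA of another copy and the separate values of the MT1 genes are uncertain. The arrays measured RNA of whole cultures, in which fewer cells of a type and less RNA per cell cannot be told apart.

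Promoters of 4 of the 10 genes were in the RefSeq promoter table (GRCh38.p14), and the 250 bases before each start are shown. Those of MT1A, MT1E, MT1F, MT1G, MT1M and MT3 were not in it. A link between matches and levels was not tested. All 4 are on the plus strand, MT2A at chr16:56608334-56608583, MT1H at chr16:56669564-56669813, MT1X at chr16:56682220-56682469 and MT1B at chr16:56651636-56651885. Capitals mark matches, on either strand, to the core of the metal response element, TGCACNC or TGCGCNC.
MT2A: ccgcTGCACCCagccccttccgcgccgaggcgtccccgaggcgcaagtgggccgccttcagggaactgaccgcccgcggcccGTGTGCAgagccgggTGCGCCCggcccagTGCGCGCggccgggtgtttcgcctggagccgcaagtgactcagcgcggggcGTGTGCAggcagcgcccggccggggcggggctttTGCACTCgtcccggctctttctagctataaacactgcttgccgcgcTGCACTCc
MT1H: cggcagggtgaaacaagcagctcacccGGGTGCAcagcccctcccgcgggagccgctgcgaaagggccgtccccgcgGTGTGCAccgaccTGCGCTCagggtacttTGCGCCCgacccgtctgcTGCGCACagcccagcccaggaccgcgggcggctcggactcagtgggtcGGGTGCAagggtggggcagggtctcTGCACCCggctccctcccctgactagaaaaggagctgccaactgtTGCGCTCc
MT1X: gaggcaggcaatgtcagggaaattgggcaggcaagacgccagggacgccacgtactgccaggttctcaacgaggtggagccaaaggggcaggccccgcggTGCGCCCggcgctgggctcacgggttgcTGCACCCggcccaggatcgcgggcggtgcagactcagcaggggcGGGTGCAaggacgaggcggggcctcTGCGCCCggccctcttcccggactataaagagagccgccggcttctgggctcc
MT1B: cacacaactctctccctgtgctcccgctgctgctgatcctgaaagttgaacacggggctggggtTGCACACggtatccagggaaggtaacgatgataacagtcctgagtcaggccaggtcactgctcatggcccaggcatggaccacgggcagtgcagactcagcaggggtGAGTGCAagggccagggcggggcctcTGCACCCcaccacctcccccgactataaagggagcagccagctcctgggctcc
This window held 7 matches in MT2A, 8 in MT1H, 4 in MT1X and 3 in MT1B, none overlapping another. Of 27305 such windows in the table, 24.7% held at least 1 match, 1.56% at least 3, 0.366% at least 4 and 0.121% at least 5. A match began 53 bases before the start in MT1H, MT1X and MT1B, and 54 bases before it in MT2A. Near 78 bases before the start, MT1H and MT1X both read GGGTGCA, and MT1B had GAGTGCA at 79. The AP-1 site TGACTCA matched once in MT2A, 104 bases before the start, once in MT1B, not in MT1H or MT1X, and in 4.16% of all windows. The GC box GGGCGG matched 2 times in MT2A and in MT1X, 1 time in MT1H and in MT1B, and at least once in 42.3% of windows. The GC box that begins 82 bases before the start of MT1X shares 2 bases with the core match at 78. A match is a stretch of letters, and binding of any factor was not measured.

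Among the members, MT1F, MT2A and MT1H were highest in gamma_ON and lowest in gamma_OFF, MT1G was low in gamma_OFF and overlapped between gamma_ON and CTRL, MT1X was low with both H2A.X vectors, and MT1E, MT1M and MT1B differed by 0.33 or less between groups. MT3 was the member with its highest levels in gamma_OFF. The plot of levels by array shows these patterns.

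**Figure D1:**
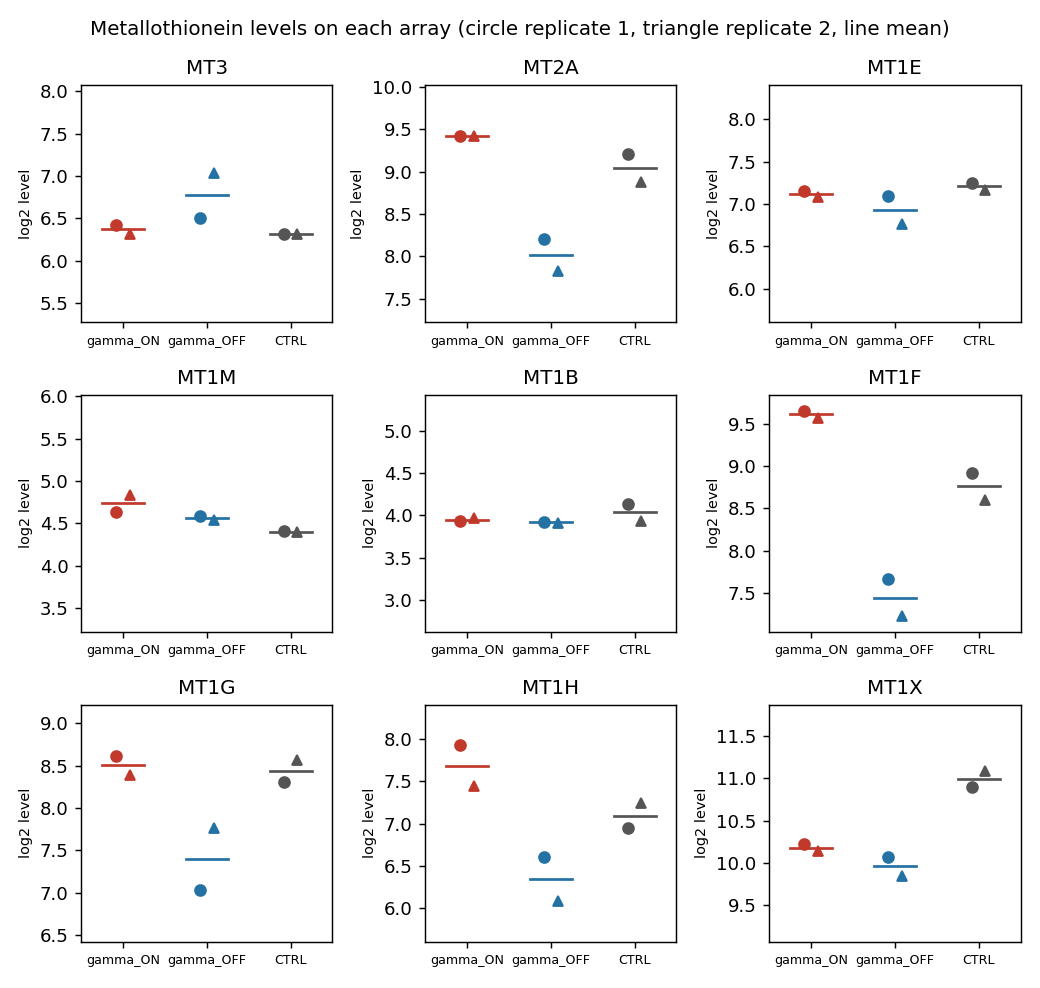
Log2 level of each metallothionein gene (1 panel per gene, in the order of the genes along chromosome 16) on the gamma_ON, gamma_OFF and CTRL arrays, with circles for replicate 1, triangles for replicate 2 and lines for means; every y axis spans the same range of log2 units. MT1F lies at 9.57 to 9.65 in gamma_ON, 7.23 to 7.66 in gamma_OFF and 8.60 to 8.92 in CTRL, and MT1X is highest on both CTRL arrays.

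MT1F, an MT1 isoform gene, had the widest range of any member. Its log2 level was 9.65 and 9.57 on the gamma_ON arrays, 7.66 and 7.23 on the gamma_OFF arrays and 8.92 and 8.60 on the CTRL arrays. No group overlapped another, and the order was gamma_ON, CTRL, gamma_OFF. The difference of gamma_ON from gamma_OFF was 2.17 (SE 0.17), a 4.49-fold higher level, the 14th highest difference of 14884 genes. Against CTRL, MT1F was 1.80-fold higher in gamma_ON (0.85, SE 0.17) and 2.49-fold lower in gamma_OFF (-1.32, SE 0.17). Without gamma_OFF replicate 2, the difference of gamma_OFF from CTRL was -1.10 and that of gamma_ON from gamma_OFF was 1.95. Its range over the 6 arrays, 2.43, was wider than that of 99.8% of genes. MT1F was listed with these values known, so nothing is read from its rank or range.

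MT2A encodes the single human metallothionein-2. Its log2 level was 9.42 and 9.42 in gamma_ON, 8.21 and 7.83 in gamma_OFF, and 9.21 and 8.88 in CTRL. The groups had the order gamma_ON, CTRL, gamma_OFF without overlap. The CTRL arrays differed by 0.33. Gamma_ON was 2.63-fold higher than gamma_OFF (1.40, SE 0.16, and 1.20 without gamma_OFF replicate 2). Gamma_OFF was 2.04-fold lower than CTRL (-1.03, SE 0.16), and the difference was -0.83 without gamma_OFF replicate 2. Gamma_ON differed from CTRL by 0.37 (SE 0.16), by 0.21 without CTRL replicate 2 and by 0.53 without CTRL replicate 1.

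MT1H, another MT1 isoform gene, had log2 levels of 7.93 and 7.44 in gamma_ON, 6.61 and 6.08 in gamma_OFF, and 6.95 and 7.24 in CTRL. Here too no group overlapped another, but the replicates of gamma_ON differed by 0.48 and those of gamma_OFF by 0.53. Gamma_ON was 2.52-fold higher than gamma_OFF (1.34, SE 0.21, and 1.07 without gamma_OFF replicate 2). Against CTRL the difference was 0.59 (SE 0.21) in gamma_ON, or 0.35 without gamma_ON replicate 1, and -0.75 (SE 0.21) in gamma_OFF, or -0.48 without gamma_OFF replicate 2.

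MT1G, an MT1 isoform gene, stood at 8.61 and 8.39 in gamma_ON, 7.03 and 7.76 in gamma_OFF, and 8.30 and 8.57 in CTRL. Both gamma_OFF arrays lay below all others, while the gamma_ON and CTRL arrays overlapped. Gamma_OFF was 2.06-fold lower than CTRL (-1.04, SE 0.22), and gamma_ON was 2.15-fold higher than gamma_OFF (1.11, SE 0.22). The gamma_OFF arrays differed by 0.72, and here replicate 1 was the lower one. Without replicate 2 the difference from CTRL was -1.40 and that of gamma_ON from gamma_OFF was 1.47, and without replicate 1 they were -0.68 and 0.75. Gamma_ON differed from CTRL by 0.07 (SE 0.22).

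MT1X, an MT1 isoform gene at the end of the cluster, did not follow the order of MT1F. Its log2 level was 10.22 and 10.14 in gamma_ON, 10.07 and 9.85 in gamma_OFF, and 10.90 and 11.09 in CTRL. Levels were lower in both groups with an H2A.X vector than in CTRL, and the groups did not overlap. Gamma_ON was 1.76-fold lower than CTRL (-0.82, SE 0.13) and gamma_OFF 2.05-fold lower (-1.04, SE 0.13, and -0.92 without gamma_OFF replicate 2). The difference between gamma_ON and gamma_OFF was 0.22 (SE 0.13), close to the gap of 0.22 between the gamma_OFF arrays. It was 0.11 without gamma_OFF replicate 2 and 0.33 without gamma_OFF replicate 1. It was 0.05 after quantile normalization and 0.00348 after all arrays were rescaled to 1 signal range.

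MT3, first described as a growth inhibitory factor of the brain, stood at 6.42 and 6.31 in gamma_ON, 6.50 and 7.04 in gamma_OFF, and 6.32 and 6.31 in CTRL. Gamma_OFF was above both other groups, by 0.46 (SE 0.17) over CTRL, and gamma_ON lay below gamma_OFF by 0.40 (difference -0.40, SE 0.17). Gamma_OFF replicate 2 carried most of this. Without it gamma_OFF was 0.19 above CTRL and the difference of gamma_ON from gamma_OFF was -0.14, and without replicate 1 it was 0.73 above. The 7 measured astrocyte and neural markers had a mean log2 level of 6.52 to 6.63 in gamma_ON, 6.76 to 6.94 in gamma_OFF and 6.77 to 6.84 in CTRL. Their differences of gamma_OFF from CTRL ran from the -0.49 of NES, the 1 called gene, to the 0.37 of GFAP (limma adjusted p = 0.127), with PAX6 at -0.03, S100B at 0.02 and a median of 0.11. The part of such cells in the MT3 levels was not tested.

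The other 3 members, all MT1 isoform genes, had small differences. MT1E stood at 7.15 and 7.08 in gamma_ON, 7.09 and 6.76 in gamma_OFF, and 7.25 and 7.17 in CTRL, and gamma_OFF differed from CTRL by -0.28 (SE 0.14), or -0.12 without gamma_OFF replicate 2. MT1M stood at 4.64 and 4.84 in gamma_ON, 4.59 and 4.54 in gamma_OFF, and 4.41 and 4.40 in CTRL. MT1B was flat, at 3.93 and 3.97 in gamma_ON, 3.92 and 3.91 in gamma_OFF, and 4.14 and 3.94 in CTRL. All 3 had mean levels under the median gene level of 7.12, and the largest of their 9 differences was the 0.33 (SE 0.12) of MT1M in gamma_ON against CTRL. MT1B's range over the arrays, 0.23, was wider than that of 7.48% of genes. Of the 9 measured members, 4 had a mean at or above 7.12, namely MT1F, MT1G, MT1X and MT2A.

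Outside the list, MT4 and the transcribed pseudogene MT1L also had named rows. MT4 stood at 8.05 and 8.38 in gamma_ON, 8.56 and 8.48 in gamma_OFF, and 8.26 and 8.30 in CTRL. Like MT3, it was highest on both gamma_OFF arrays. Gamma_OFF differed from CTRL by 0.24 (SE 0.14) and gamma_ON from gamma_OFF by -0.31 (SE 0.14). MT1L stood at 5.13 and 4.89 in gamma_ON, 4.99 and 3.85 in gamma_OFF, and 5.12 and 4.61 in CTRL, with a gap of 1.14 between the gamma_OFF arrays. Limma called 0 of these 2 genes in each of the 3 comparisons, and 0 had an unadjusted p under 0.05.

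In gamma_ON against CTRL, limma at an adjusted p under 0.05 called 2 of 9 members, MT1F higher and MT1X lower, where 1.55% of all genes were called, 0.739% higher and 0.806% lower. The groups did not overlap for 6 members, 4 higher and 2 lower, beside 52.4% of all genes, 30.0% higher and 22.3% lower. The median difference over the members was 0.07, against 0.02 over all genes. In gamma_OFF against CTRL 4 of 9 members were called, all lower (MT1F, MT2A, MT1X and MT1G), beside 8.85% of all genes in either direction, 6.08% lower and 2.77% higher. Limma called 0 members higher, with 1 at an unadjusted p under 0.05. No member's groups overlapped, with 7 lower and 2 higher, beside 61.3% of all genes, 30.2% lower and 31.1% higher. The median was -0.75, against 0.01 over all genes. In gamma_ON against gamma_OFF 4 of 9 were called, all higher (MT1F, MT2A, MT1H and MT1G), beside 5.99% of all genes in either direction, 3.98% higher and 2.02% lower. Limma called 0 members lower, with 1 at an unadjusted p under 0.05. The groups did not overlap for 8 members, 7 higher and 1 lower, beside 63.3% of all genes, 35.8% higher and 27.6% lower, and the median was 0.22, against 0.02 over all genes. Since the members were listed with these values known, nothing is read from these counts. The comparisons with CTRL share the CTRL arrays.

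These counts changed when single arrays were left out, and so did the counts over all genes. In gamma_ON against CTRL, MT1F and MT1X lost their calls without any single CTRL or gamma_ON array. Their differences ran from 0.69 to 1.01 and from -0.92 to -0.72 with single arrays left out. In gamma_OFF against CTRL the members' median difference then ran from -0.86 to -0.48. In gamma_ON against gamma_OFF only MT1F kept its call without gamma_ON replicate 1, and its difference ran from 1.95 to 2.38.

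The family's flanks were measured with 5 genes on each side of the cluster, in the order of the RefSeq table. In gamma_ON against CTRL limma called 0 of these 10 genes, with 1 at an unadjusted p under 0.05, and their differences ran from -0.27 to 0.28. In gamma_OFF against CTRL 4 had an unadjusted p under 0.05, beside 2096 higher and 2423 lower of all 14884 genes. Of the 10, 2 were called, both lower, where 8.85% of all genes were called. They were BBS2, a ciliary BBSome gene next to the cluster (-0.57, SE 0.14, limma adjusted p = 0.0441), and CPNE2, a copine gene (-0.61, SE 0.11, limma adjusted p = 0.0189). BBS2 lost its call with 5 of the 6 arrays left out in turn (adjusted p up to 0.205) and CPNE2 with 3 (up to 0.121), and without gamma_OFF replicate 2 their differences were -0.38 and -0.57. In gamma_ON against gamma_OFF the noncoding gene GNAO1-DT was lower (-0.65, SE 0.15, limma adjusted p = 0.0453, up to 0.239 with an array left out, and -0.54 without gamma_OFF replicate 2), and the 10 differences ran from -0.65 to 0.61. In that comparison 6 of the 10 had an unadjusted p under 0.05, beside 2884 higher and 2026 lower of all 14884 genes. The median over the 10 was 0.27, beside 0.22 over the 9 members and 0.02 over all genes. Of the members, 4 were at least 2-fold higher in gamma_ON, with differences up to 2.17. Of the 6 flanking genes, RSPRY1 (0.61, SE 0.18), OGFOD1 (0.46), CPNE2 (0.34) and BBS2 (0.33) were higher in gamma_ON. MIR3935 (-0.46) and GNAO1-DT were lower, and only GNAO1-DT was called. NUP93, a nuclear pore gene next to MT1X, had differences of 0.18, 0.02 and 0.15 in gamma_ON against CTRL, gamma_OFF against CTRL and gamma_ON against gamma_OFF.

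**Figure D2:**
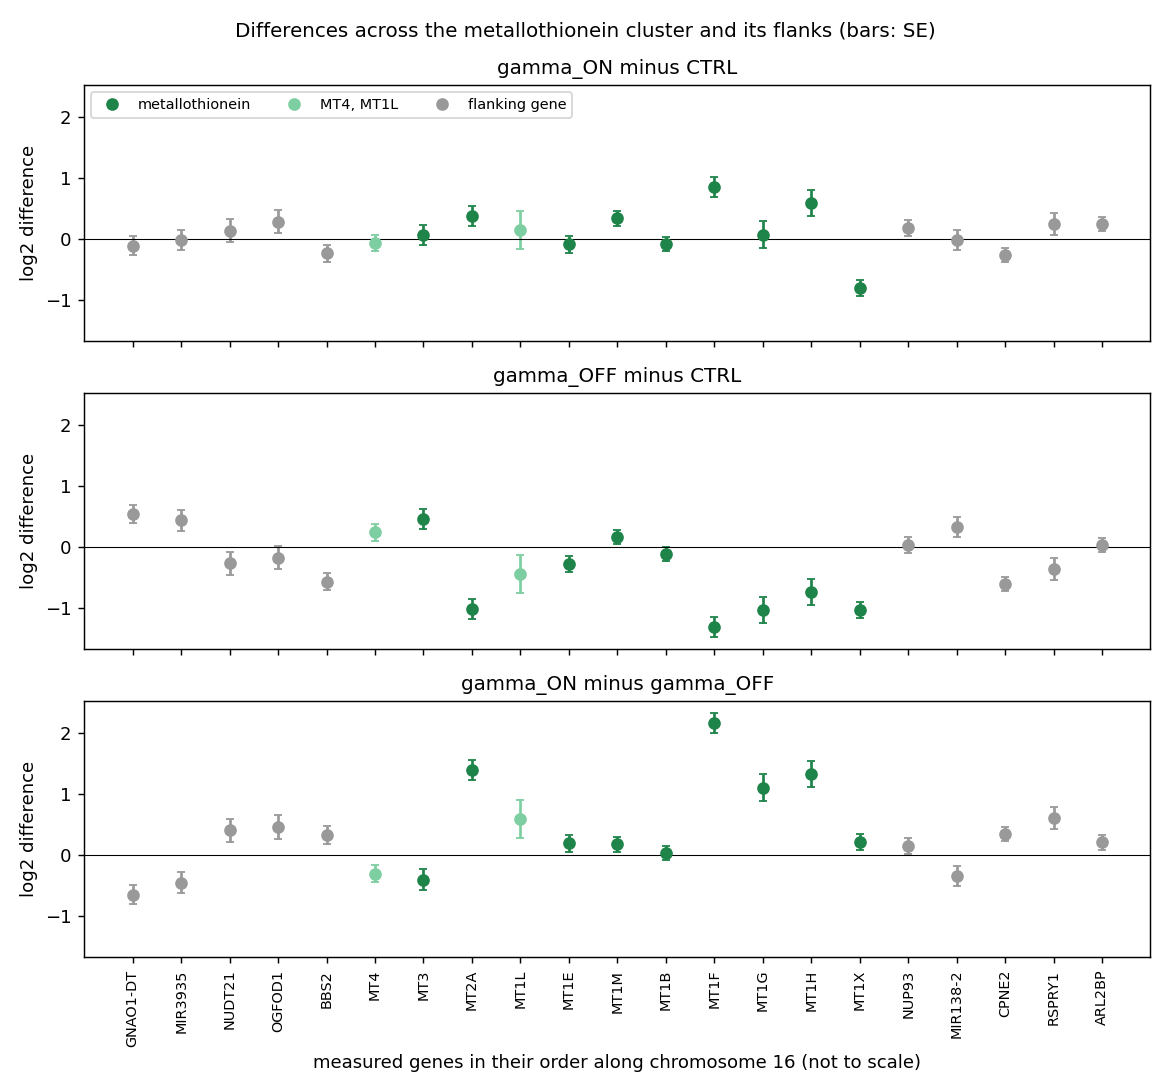
Log2 difference (points) with its SE (bars) for the metallothionein genes, MT4, MT1L and 5 flanking genes on each side, in their order along chromosome 16 (x axis, not to scale), in gamma_ON minus CTRL, gamma_OFF minus CTRL and gamma_ON minus gamma_OFF. The flanking genes lie between -0.65 and 0.61, while MT1F reaches 2.17 in gamma_ON minus gamma_OFF and MT1X is the lowest member in gamma_ON minus CTRL.

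Genes that handle metals or share regulators with the metallothioneins were read from the same fit over all genes. None of the 10 listed zinc exporter genes of the SLC30 family and none of the 14 zinc importer genes of the SLC39 family had a named row, so 0 were analysed here. MTF1 stood at 9.68 and 9.56 in gamma_ON, 9.28 and 9.41 in gamma_OFF, and 9.53 and 9.61 in CTRL, and was not called in any comparison (limma adjusted p = 0.227 in gamma_OFF against CTRL, difference -0.23). Its largest difference was 0.28 in gamma_ON against gamma_OFF (SE 0.12, limma adjusted p = 0.143, unadjusted p = 0.0445), where the groups did not overlap. Of the 4 measured genes in the list of MTF1 and its targets outside the family, limma called 0 in gamma_ON against CTRL, 0 in gamma_OFF against CTRL and 1 in gamma_ON against gamma_OFF, with 1, 0 and 2 at an unadjusted p under 0.05. The called gene was SELENOH, a selenoprotein gene that MTF1 regulates in mouse (0.55, SE 0.13, limma adjusted p = 0.0468). SELENOH lost its call with 5 of 6 arrays left out in turn, at worst 0.295 when gamma_ON replicate 1 was the one omitted, and its difference was 0.41 without gamma_OFF replicate 2. HMOX1, the heme oxygenase gene, had 8.13 and 8.01 in gamma_ON, 8.03 and 8.10 in gamma_OFF, and 8.04 and 8.27 in CTRL.

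Of 8 measured copper handling genes limma called 0 in gamma_ON against CTRL (2 at an unadjusted p under 0.05), 1 lower in gamma_OFF against CTRL and 0 in gamma_ON against gamma_OFF (3 unadjusted). CCS, the copper chaperone for superoxide dismutase, stood at 7.80 and 7.80 in gamma_ON, 7.55 and 7.33 in gamma_OFF, and 7.97 and 8.17 in CTRL. It fell in gamma_OFF by 0.63 against CTRL (SE 0.13, limma adjusted p = 0.0258), and the call was lost with 5 of 6 arrays left out in turn (up to 0.178), with a difference of -0.52 without gamma_OFF replicate 2. COMMD1, a regulator of copper export, had a difference of 0.33 in gamma_ON against CTRL (limma adjusted p = 0.236).

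Of 14 measured genes of NRF2 and glutathione metabolism, 0 were called in gamma_ON against CTRL (3 at an unadjusted p under 0.05) and 0 in gamma_ON against gamma_OFF (4 unadjusted) by limma. In gamma_OFF against CTRL 1 fell, 0 rose and 13 did not pass. NFE2L2, which encodes NRF2 itself, fell by 0.65 (SE 0.12, limma adjusted p = 0.0169, and 0.114 without CTRL replicate 2), and its difference was -0.56 without gamma_OFF replicate 2. Its levels were 7.50 and 7.47 in gamma_ON, 7.26 and 7.09 in gamma_OFF, and 7.83 and 7.81 in CTRL. KEAP1, the inhibitor of NRF2, had a difference of 0.61 in gamma_ON against CTRL (limma adjusted p = 0.169), and OSGIN1 at -0.40 in gamma_ON against gamma_OFF (limma adjusted p = 0.0865).

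Of 10 measured glucocorticoid target genes, limma called 0 in gamma_ON against CTRL, where KLF9, a transcription factor gene, had a difference of -0.56 (adjusted p = 0.0909, the 1 gene with an unadjusted p under 0.05). ERRFI1, an inhibitor of EGF receptor signalling, was the 1 gene called in each of the other comparisons. Its levels were 9.78 and 9.68 in gamma_ON, 9.26 and 8.87 in gamma_OFF, and 9.93 and 9.65 in CTRL. ERRFI1 fell in gamma_OFF by 0.72 against CTRL (limma adjusted p = 0.0314) and was 0.67 higher in gamma_ON than in gamma_OFF (limma adjusted p = 0.0477). Both calls were lost with 5 of 6 arrays left out in turn, with adjusted p-values up to 0.172 and 0.295, and without gamma_OFF replicate 2 the differences were -0.53 and 0.47.

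Of 9 measured heat shock chaperone genes 2 fell and 7 did not pass in gamma_ON against CTRL, 3 fell and 6 did not pass in gamma_OFF against CTRL, and limma called 0 in gamma_ON against gamma_OFF (2 at an unadjusted p under 0.05). HSPA1A and HSPA1B, near-identical inducible chaperone genes whose separate values are uncertain, stood at 9.81 and 9.75 and at 10.06 and 9.92 in gamma_ON. In gamma_OFF HSPA1A averaged 10.08 ± 0.11 (SD, n = 2) and HSPA1B stood at 10.18 and 10.35, and in CTRL they stood at 10.79 and 11.07 and at 11.13 and 11.32. HSPA1A had limma adjusted p-values of 0.00414 in gamma_ON against CTRL and 0.0104 in gamma_OFF against CTRL, and HSPA1B had 0.00267 and 0.00679. Without gamma_ON replicate 2 the first comparison gave 0.0619 and 0.0513, and without CTRL replicate 2 the second gave 0.0927 and 0.0572. HSPA4L, another chaperone of that family, fell by 0.75 in gamma_OFF against CTRL (limma adjusted p = 0.0144, and 0.114 without CTRL replicate 2). Without gamma_OFF replicate 2 the differences from CTRL were -0.93 for HSPA1A, -1.04 for HSPA1B and -0.63 for HSPA4L. The list's median was -0.05 in gamma_ON and -0.10 in gamma_OFF against CTRL.

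Markers of other cells that a culture could hold were read beside the members. The 15 measured hepatic and endoderm markers had a mean log2 level of 8.86 to 8.93 in gamma_ON, 7.24 to 7.25 in gamma_OFF and 7.29 to 7.54 in CTRL. In gamma_ON against CTRL 8 rose, 0 fell and 7 did not pass; in gamma_OFF against CTRL 2 rose, 4 fell and 9 did not pass; in gamma_ON against gamma_OFF 9 rose, 0 fell and 6 did not pass. AFP, the alpha-fetoprotein gene, was 3.35 higher in gamma_ON than in gamma_OFF (SE 0.14, limma adjusted p = 9.15e-06, and 3.19 without gamma_OFF replicate 2). In gamma_OFF against CTRL AFP rose by 1.02 (limma adjusted p = 0.00743, 1.18 without gamma_OFF replicate 2, and adjusted p = 0.0558 without CTRL replicate 2) and AHSG, the fetuin-A gene, rose by 0.65 (limma adjusted p = 0.0464, and 0.270 without CTRL replicate 2), or by 0.69 without gamma_OFF replicate 2. In gamma_ON against CTRL AFP rose by 4.37, AHSG by 3.41 and the fibrinogen chain genes FGA and FGG by 3.10 and 3.02. These differences ranked 1 to 4 of 14884 genes. APOA2 and TTR, which encode an apolipoprotein and transthyretin, had the group order of MT1F and MT2A. FGB and GATA6, the other markers that fell in gamma_OFF against CTRL (differences -0.75 and -0.56), had that order too. Each lost its call when some single arrays were left out. APOA2 stood at 10.60 and 10.71 in gamma_ON, 8.41 and 8.20 in gamma_OFF, and 9.80 and 9.29 in CTRL, and TTR at 11.66 and 11.80 in gamma_ON, 9.30 and 9.48 in gamma_OFF, and 10.60 and 10.11 in CTRL. In gamma_OFF against CTRL APOA2 fell by 1.24 (limma adjusted p = 0.00731) and TTR fell by 0.96 (limma adjusted p = 0.0144, and 0.087 without CTRL replicate 1). Without gamma_OFF replicate 2 the differences were -1.14 for APOA2 and -1.05 for TTR. Markers of this list thus lay on both sides of CTRL in gamma_OFF. The part of cells with such markers in the metallothionein levels was not tested.

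Of 13 listed fibroblast markers 4 were measured. Their mean log2 level was 8.20 to 8.25 in gamma_ON, 7.74 to 7.88 in gamma_OFF and 8.04 to 8.19 in CTRL. The rows are for human genes and the feeders are mouse cells, so these levels are not a measure of the feeder layer. TAGLN, a smooth muscle and fibroblast actin-binding protein gene, stood at 8.52 and 8.52 in gamma_ON, 8.58 and 8.61 in gamma_OFF, and 9.16 and 9.13 in CTRL. It fell in gamma_ON by 0.62 (limma adjusted p = 0.0304) and in gamma_OFF by 0.55 (limma adjusted p = 0.0235) against CTRL, and without CTRL replicate 2 the adjusted p-values were 0.243 and 0.143. Without gamma_OFF replicate 2 the gamma_OFF difference was -0.56 for TAGLN. LUM, the lumican gene, stood at 9.95 and 10.03 in gamma_ON, 9.09 and 8.69 in gamma_OFF, and 9.42 and 8.84 in CTRL. It was 1.10 higher in gamma_ON than in gamma_OFF (SE 0.20, limma adjusted p = 0.0260, and 0.194 without gamma_ON replicate 1), or 0.90 higher without gamma_OFF replicate 2. The part of feeder cells, whose RNA is from mouse, in the metallothionein levels was not tested.

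The remaining marker lists held few called genes. Of 10 pluripotent cell markers 1 rose in gamma_ON against CTRL (POU5F1, the OCT4 gene, 0.71, limma adjusted p = 0.0441, and 0.283 without CTRL replicate 1) and 1 in gamma_OFF against CTRL (DNMT3B, a DNA methyltransferase gene, 0.46, limma adjusted p = 0.0489, and 0.211 without CTRL replicate 1). Limma called 0 of them in gamma_ON against gamma_OFF, with 2 at an unadjusted p under 0.05. Of 7 astrocyte and neural markers, NES, the nestin gene, fell by 0.49 in gamma_OFF against CTRL (limma adjusted p = 0.0471, and 0.243 without CTRL replicate 2) and DCX, the doublecortin gene, was lower in gamma_ON than in gamma_OFF (-0.71, limma adjusted p = 0.0424, and 0.292 without gamma_ON replicate 1). Limma called 0 of the 7 in gamma_ON against CTRL, with 3 at an unadjusted p under 0.05. Without gamma_OFF replicate 2 the differences were 0.37 for DNMT3B and -0.61 for NES against CTRL, and -0.73 for DCX in gamma_ON against gamma_OFF.

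**Figure D3:**
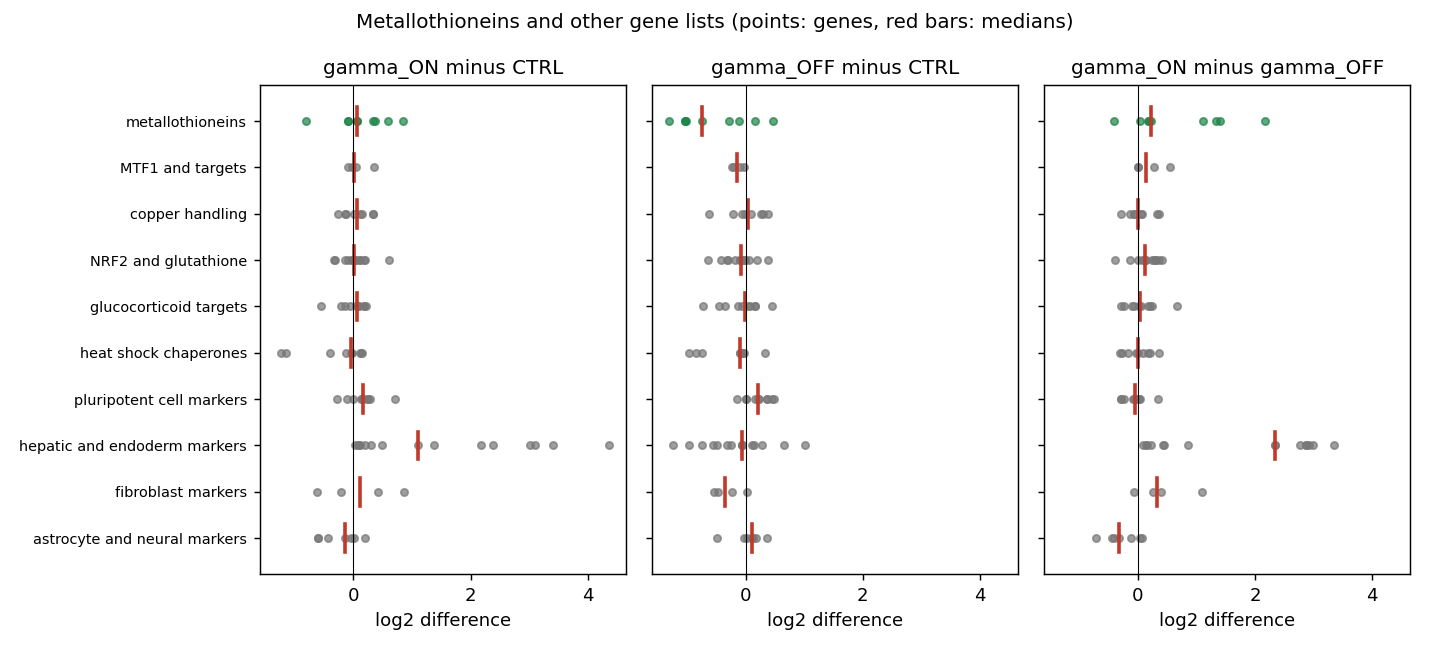
Log2 difference of every measured gene (points) and its list's median (red bars) for the 9 metallothioneins (green) and 9 other lists (grey), in gamma_ON minus CTRL, gamma_OFF minus CTRL and gamma_ON minus gamma_OFF. In gamma_OFF minus CTRL the metallothionein median lies at -0.75 and the medians of the other lists between -0.36 and 0.22, while in gamma_ON minus gamma_OFF the hepatic and endoderm markers lie highest, at a median of 2.34.

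A profile over the arrays was taken as the median over MT1F, MT1G, MT1X and MT2A, the members above the median gene level, of the log2 level minus its mean over the 6 arrays. It stood at 0.54 and 0.44 in gamma_ON, -0.78 and -0.76 in gamma_OFF, and 0.35 and 0.26 in CTRL. Among 635 genes outside the family with a characterised symbol and a range of at least 1, those most like it over the 6 arrays were IKBIP (Pearson's r = 0.992), SYTL5 (0.987), LIFR (0.984), ATF7IP2 (0.984) and GATA3 (0.984). LIFR, the receptor gene for leukaemia inhibitory factor, stood at 8.93 and 8.91 in gamma_ON, 7.95 and 7.98 in gamma_OFF, and 9.01 and 8.71 in CTRL. GATA3, a transcription factor gene, stood at 8.18 and 8.08 in gamma_ON, 7.10 and 7.31 in gamma_OFF, and 8.15 and 7.92 in CTRL. The genes with the most opposite pattern were QNG1 (r = -0.970), KRTAP2-1 (-0.962) and ADRA2A (-0.954), an adrenergic receptor gene. Of the members that do not form the profile, MT1H had r = 0.881, MT1E 0.691, MT1B 0.418, MT1M 0.120 and MT3 -0.754. These values rest on 6 arrays that fall into 3 groups and are a description of these arrays.

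**Figure D4:**
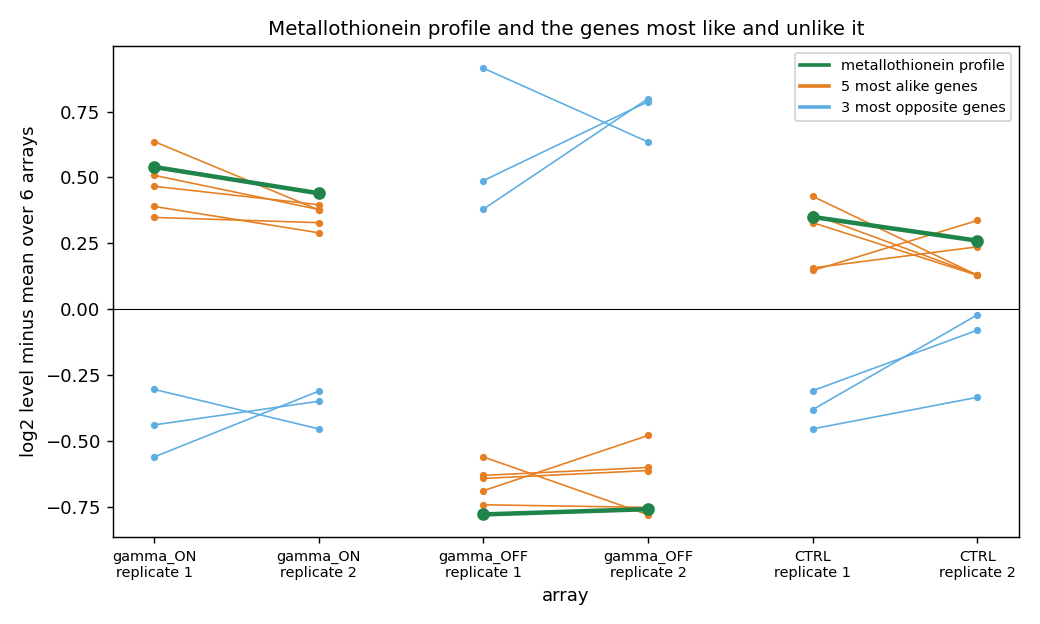
Log2 level minus its mean over 6 arrays (y axis) on each array (x axis) for the metallothionein profile (green), the 5 genes most like it (orange) and the 3 most opposite genes (blue); lines join the 2 arrays of a group. The profile lies at 0.44 to 0.54 in gamma_ON, -0.78 to -0.76 in gamma_OFF and 0.26 to 0.35 in CTRL.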

How the data were processed

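Total RNA of H9 clones was hybridised in 6 samples with 1 array each, in 3 groups of 2 taken from the sample descriptions. The deposited values are log2 expression levels, 1 column per array. The submitters' processing notes name RMA (background correction, normalization and probe summary) and Partek 6.6. Their options, with the build and annotation, are not given here by any source. Array medians of 6.11 to 6.25 fit a log2 scale, and precision is limited by having 6 arrays.

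Of 53617 rows, 16098 had 1 gene symbol in the platform annotation, 0 had several and 37519 were unnamed here. All 16098 identifiers matched the RefSeq table of GRCh38.p14, and 0 symbols changed. Of 779 genes with several rows the brightest row was used, which left 14884 genes. Every member had a single row.

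All genes were fitted with limma 3.58.1 (lmFit and eBayes) in R 4.3.3, over all 6 arrays without a replicate block (3 residual and 6.05 prior degrees of freedom), with Benjamini-Hochberg adjustment over all genes and a call at an adjusted p under 0.05. SEs are moderated, and every adjusted p-value comes from this limma fit. With 2 arrays a group, an exact 2-sided test reaches at best p = 0.333 and was not run. The fit was tested on simulated data. The members and lists were chosen with earlier results of these data known. Named were all members, from each other list up to 4 called genes per comparison by size or otherwise the gene with the smallest p, the 5 flanking genes on each side, and the genes most like and unlike the profile. Not all genes this rule takes are given values. HMOX1, GFAP, PAX6, S100B, NANOG, GATA6, MT4 and MT1L were taken after their values were seen and stand beside a count or pattern as examples. Motifs were searched with Python 3.11.15. Alternatives varied the spread model, weights, arrays, rows, dim genes, scaling, block and threshold.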

Additional observations from a re-analysis of the deposited data

How the results depend on the processing

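Of the 27 member differences, 10 values recomputed under other settings moved by more than the replicate spread, and 0 called differences changed sign. All 10 were in MT1B, MT1M and MT1X under quantile normalization or rescaling of the signal range. No other setting could register such a move. Leaving out 1 of a group's 2 arrays shifts a difference by no more than that spread, and the remaining settings did not alter the differences. The groups of called members did not overlap, so leaving out an array could not change a sign. Members called in gamma_ON against CTRL numbered 2, beside 230 calls over all genes. Only 1 (MT1X) was called with all named rows, with quantile normalization and with a rescaled signal range, beside 233, 169 and 164. With single arrays left out the counts of called members were 0 to 2 in gamma_ON against CTRL, 2 to 7 in gamma_OFF against CTRL and 1 to 5 in gamma_ON against gamma_OFF. The members' median difference was then 0.0042 to 0.20, -0.86 to -0.48 and 0.15 to 0.35 in the same order of comparisons. With dim genes left out it was 0.22, -1.04 and 1.25 in that order, over the 4 members that remained. Genes called over all the other lists together numbered 12 in gamma_ON against CTRL (20 with all named rows, and 6 to 15 with single arrays left out), 15 in gamma_OFF against CTRL (24 at an adjusted p under 0.10, 7 in a fit of only the groups compared, and 3 to 21) and 13 in gamma_ON against gamma_OFF (8 to 26). The replicate number marked no known link: deviations of same-numbered arrays correlated over genes at -0.0962, -0.0735 and 0.088. With the replicate block 2 members were called in gamma_ON against CTRL, beside 210 of all genes. In gamma_OFF against CTRL 4 were called, beside 1245, and in gamma_ON against gamma_OFF 4, beside 871. List genes called with the block numbered 13, 12 and 12 in the same order of comparisons, and no median changed. Over all genes, calls ranged across settings from 34 to 803 in gamma_ON against CTRL (230 as reported), from 131 to 3515 in gamma_OFF against CTRL (1317) and from 49 to 4061 in gamma_ON against gamma_OFF (892). MT1G was not called after quantile normalization (-0.96 in gamma_OFF against CTRL and 1.01 in gamma_ON against gamma_OFF). Where an array is left out, the lone array of its group is assumed to vary like the others. The cause of these shifts was not tested. Dim rows such as MT1B and MT1M, and the likeness of the copies, limit what 2 arrays a group can show.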
